A study of Mus musculus with 8 samples.

Results

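The 32 genes described here encode parts of the lysosome and of autophagy. They comprise 3 regulators (Tfeb, Tfe3, Flcn), 4 membrane proteins (Lamp1, Lamp2, Mcoln1, Npc1), 5 cathepsins (Ctsa, Ctsb, Ctsd, Ctsl, Ctsz) and 7 glycosidases (Gla, Glb1, Hexa, Neu1, Gusb, Manba, Naglu). The others are 3 proteins of lipid breakdown or export (Psap, Asah1, Npc2), 3 proton pump proteins (Atp6v0d1, Atp6v1h, Atp6ap1), 4 autophagosome proteins (Map1lc3b, Gabarapl1, Wipi1, Uvrag) and 3 cargo receptors (Sqstm1, Optn, Nbr1). They were chosen by name, with earlier results of these data known. Every array probe whose accession belongs to one of them in RefSeq was taken. That gave 40 probes, with at least 1 for each of the 32 genes, among 21154 genes named on the array and 15182 genes tested.

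Expression was measured on 8 single-colour Agilent arrays of mouse embryonic stem cells, in 4 groups of 2. All cells were H-Ras-/-;N-Ras-/-;K-Ras lox/lox;RERT ert/ert. They thus lacked H-Ras and N-Ras in every group and carried a floxed K-Ras with RERT, an allele that expresses a tamoxifen-activated Cre recombinase from the locus of the large RNA polymerase II subunit. The cells were labelled ERF-WT or ERF-KO, and each genotype was either untreated or given 4-hydroxytamoxifen (OHT) for at least 2 days, which deletes K-Ras. The design asks which part of the response to losing RAS signalling needs ERF, a transcriptional repressor that ERK keeps out of the nucleus. No group received OHT while keeping RAS, so the effect of OHT itself and that of losing RAS cannot be told apart. Each sample was a mix of 2 clones grown on gelatin with serum and LIF, and the source names give 4 cell pools: 2 are wild type (A1, B1) and 2 are labelled knockout (A2, B2). Each pool was sampled with and without OHT.

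Lysosomes are acidic organelles in which hydrolases break down proteins, glycans and lipids delivered by endocytosis and autophagy. A proton-pumping V-ATPase acidifies them, and heavily glycosylated membrane proteins such as LAMP1 and LAMP2 line them. In autophagy, cargo bound by receptors such as p62 (Sqstm1) is wrapped by membranes that carry LC3 and GABARAP proteins and then fuses with the lysosome. Many of these genes are targets of TFEB, TFE3 and MITF, related transcription factors that mTORC1 holds in the cytoplasm while nutrients are plentiful and that bind the E-box-like CLEAR element. ERK also phosphorylates TFEB and MITF. In mouse embryonic stem cells, folliculin (Flcn) and TFE3 are known for their part in the exit from self-renewal.

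Promoter sequences show how the CLEAR core is laid out in these genes. Promoters from RefSeq on build GRCm38.p6, running from 250 bases before to 50 bases after the start of transcription, were found for 28 of the 32 members. The motif searched was TCACGTG on either strand, which contains the shorter E-box CACGTG. It stood in the promoters of 8 of the 28 members (28.6%), against 4.29% of all 27025 promoters and 6.46% of the 12066 promoters of tested genes. CACGTG alone stood in 9 of the 28 (32.1%), against 8.09% and 11.3%. The following stretches lie upstream of the start site, are written 5′ to 3′ on the gene's own strand, and carry CACGTG in capitals. Lamp1 is shown because it has 4 copies within 70 bases, Mcoln1, Ctsd, Glb1 and Ctsa because they were called higher after OHT in the paired fit described further on, and Gla and Naglu because they hold the motif but were not called.
Lamp1, chr8:13159091-13159160, plus strand: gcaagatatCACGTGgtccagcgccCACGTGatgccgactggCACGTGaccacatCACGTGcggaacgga
Mcoln1, chr8:3500434-3500503, plus strand: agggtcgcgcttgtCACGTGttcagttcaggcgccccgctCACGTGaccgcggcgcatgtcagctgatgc
Ctsd, chr7:142387888-142387947, minus strand: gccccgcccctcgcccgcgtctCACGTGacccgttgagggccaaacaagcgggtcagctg
Glb1, chr9:114401003-114401062, plus strand: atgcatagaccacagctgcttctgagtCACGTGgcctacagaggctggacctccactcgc
Ctsa, chr2:164833733-164833772, plus strand: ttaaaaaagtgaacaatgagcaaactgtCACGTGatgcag
Gla, chrX:134601181-134601240, minus strand: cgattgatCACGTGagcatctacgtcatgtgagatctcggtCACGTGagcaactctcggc
Naglu, chr11:101069994-101070053, plus strand: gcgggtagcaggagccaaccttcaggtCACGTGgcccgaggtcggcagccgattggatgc

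The share of spots well above background ran from 54.0 to 63.6% over the arrays, and 0 spots were saturated. Levels are given as the log2 signal minus the array's 75th percentile, so that 0 is that percentile. All member probes used were well above background on all 8 arrays except Nbr1 and Wipi1, which were so on 7. Some arrays had dark patches, small areas in which neighbouring spots of unrelated probes were also dim, and these held the spots of 6 members: Ctsd on the untreated array of pool A1, Atp6v1h on that of B1, Hexa, Npc2 and Nbr1 on the OHT array of A2, and Wipi1 on the OHT array of B2. Map1lc3b and Gusb were spotted 10 times each, and 1 Map1lc3b spot lay in such a patch. Pool A2 stood apart from the other pools: Pou5f1, which encodes the pluripotency factor OCT4, read 3.68 there without OHT against 5.12 to 5.47 in the other 3 untreated pools. It was not known whether the Erf probe targets deleted sequence, so the genotype was not checked from it and is called the labelled knockout.

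After OHT, lysosomal and autophagy genes were mostly higher than before it, by modest amounts. The median log2 change of the members within a pool was 0.29 in A1, 0.19 in B1, 0.35 in A2 and 0.18 in B2, against -0.04, -0.01, 0.05 and 0.04 over all genes, with spots in dark patches left out. Of the 26 members measured in all 4 pools, 15 were higher after OHT in every pool, against 24.5% of all genes, and 2 (Tfe3 and Gusb) were lower in every pool, against 22.0%. Every OHT array lay above every untreated array for Lamp2, Psap, Asah1 and Tfeb, 4 of the 26 members against 4.85% of genes. The reverse held for Tfe3 alone, 1 of 26 against 3.9%.

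Whether these changes passed a test depended on the fit. With limma on the 4 group means, which ignores that a pool was sampled on both sides, 0 of the 32 members passed at an adjusted p of 0.05 in either genotype or over both, against 0.0% of all genes in each genotype and 0.0593% over both. The smallest adjusted p was 0.284, for Tfeb over both genotypes, and 3 members in the wild type, 2 in the labelled knockout and 6 over both had an unadjusted p under 0.05. A paired fit with limma took the 4 pools as blocks, a trended and robust variance, and left out spots in dark patches. It was an alternative to the fit on group means, and its patch rule and its use for the calls below ("rose", "fell", "called") were chosen after the data had been seen. Over both genotypes it called 18 members higher, against 14.8% of all genes, and 3 lower, against 14.0%. In the wild type it called 10 higher (8.14% of all genes) and 3 lower (9.32%), and in the labelled knockout 12, each of them higher (6.3% of genes were called higher and 4.36% lower). The 12 include Npc2, for which only pool B2 was left in the labelled knockout after its A2 OHT spot was taken out. They also include Wipi1, for which only pool A2 was left there after its B2 OHT spot was taken out. With the pool block but plain variance, limma called 1 member over both genotypes (Tfeb), against 3.44% of all genes, and with dark patches out as well 4 (Tfeb, Ctsa, Ctsb and Glb1), against 11.6%. Those counts of members are near the share of all genes. Leaving out each pool in turn, the paired fit over both genotypes called 11 to 20 members, against 14.4 to 27.8% of all genes. The 9 that passed each time were Tfeb, Tfe3, Lamp1, Ctsa, Ctsb, Glb1, Psap, Asah1 and Map1lc3b. The share of all genes that passed each time was not counted. Hexa, Npc2 and Wipi1, each with a spot left out, had no p-value without A1 or without B1 and so could not pass each time. The same holds for Ctsd, which had no p-value without B1, A2 or B2 and was called without A1.

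**Figure D1:**
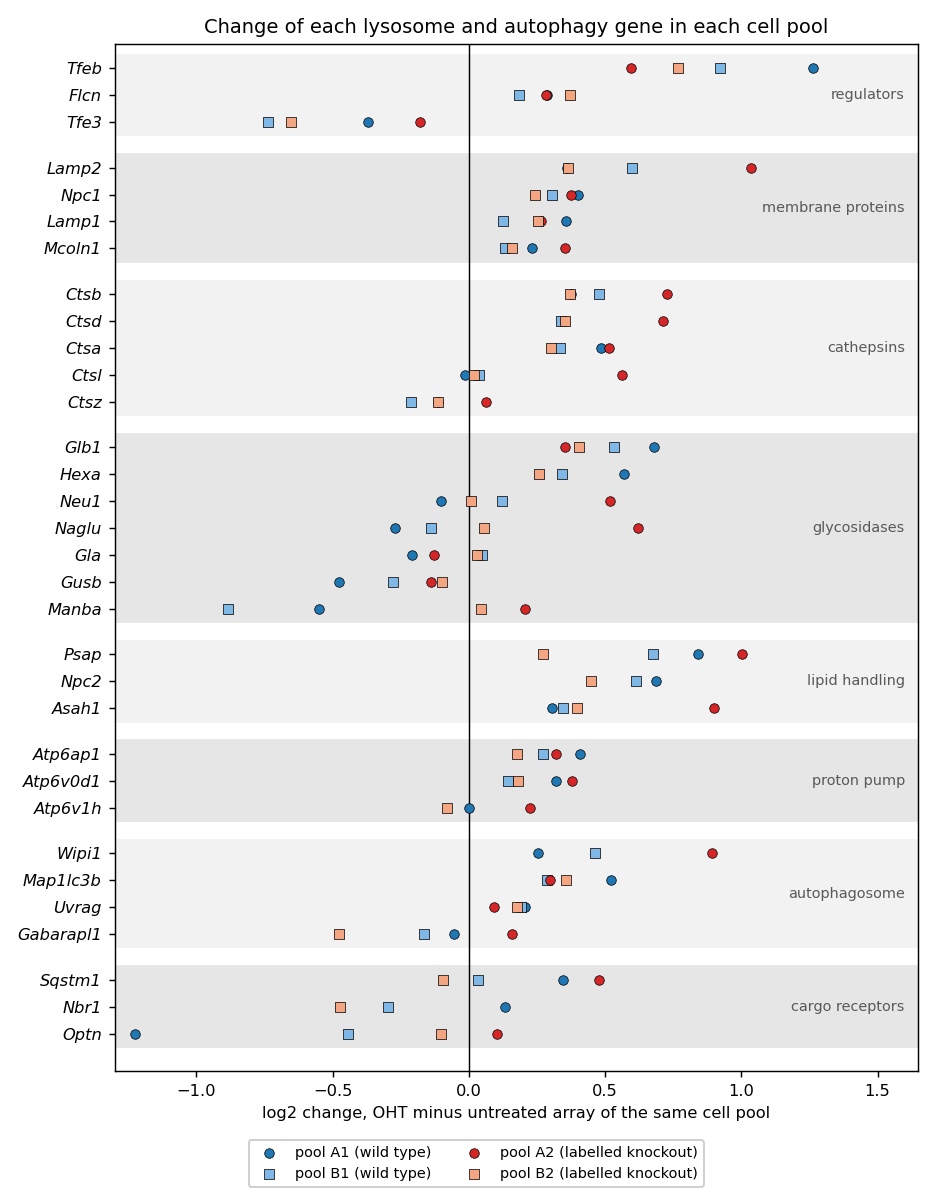
Log2 change of each member between the OHT and the untreated array of the same cell pool (x axis), 1 point per pool, with members grouped by role and spots in dark patches left out. Most points lie to the right of 0, with Tfe3 and Gusb left of 0 in all 4 pools and Manba left of 0 in both wild type pools.

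The regulators moved in opposite directions. Tfeb, which encodes the transcription factor most closely tied to lysosome biogenesis, read -1.40 (A1), -1.54 (B1), -1.71 (A2) and -1.34 (B2) in untreated cells and -0.13, -0.62, -1.12 and -0.57 after OHT. All 4 OHT arrays were above all 4 untreated ones. Tfeb rose by 0.89 ± 0.10 on the log2 scale (SE, 4 pools), a factor of 1.85, with a limma adjusted p of 9.89e-04. The rise was 1.09 ± 0.15 in the wild type (adjusted p 0.00291) and 0.68 ± 0.15 in the labelled knockout (adjusted p 0.0293). Each SE here and below comes from limma, which draws a gene's spread between pools towards that of all genes.

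Tfe3, its close relative, went the other way. It read 4.81 (A1), 4.91 (B1), 4.91 (A2) and 4.92 (B2) without OHT, a narrow range, and 4.44, 4.17, 4.73 and 4.27 with it. No OHT array reached the lowest untreated level, and the drop was smallest in A2. Tfe3 changed by -0.48 ± 0.09 over both genotypes (limma adjusted p 0.00801), and its second probe by -0.57 on average, lower in each of 4 pools.

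Flcn, which encodes the folliculin protein that keeps TFE3 and TFEB out of the nucleus, rose by 0.28 ± 0.05 (adjusted p 0.00782). Its untreated levels were 2.93, 3.03, 2.65 and 2.87 in A1, B1, A2 and B2, and its OHT levels 3.21, 3.21, 2.94 and 3.24. The OHT level of A2 lay within the untreated range of the wild type, but within each pool the OHT array was higher.

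**Figure D2:**
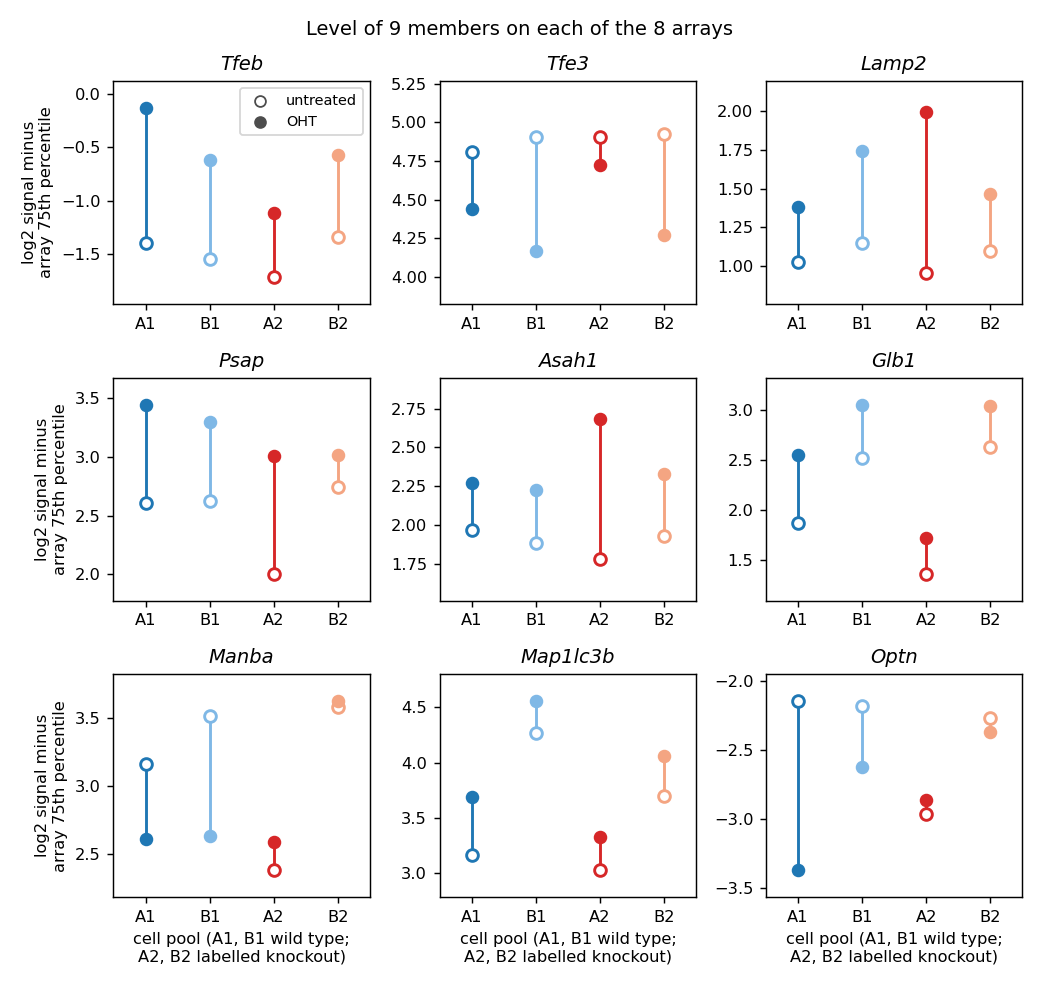
Level of 9 members (log2 signal minus the array's 75th percentile, y axis) in each cell pool (x axis), with open circles for untreated and filled circles for OHT arrays. Tfeb, Lamp2, Psap and Asah1 have every filled circle above every open one, Tfe3 has the reverse, and Manba and Optn are lower after OHT by more than 0.4 in both wild type pools but not in A2 or B2.

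All 4 lysosomal membrane proteins rose over both genotypes, and all were higher in every pool. Lamp2, which encodes the lysosomal glycoprotein that also serves chaperone-mediated autophagy, read 1.02, 1.15, 0.96 and 1.10 untreated (A1, B1, A2, B2) and 1.38, 1.75, 1.99 and 1.46 after OHT. The groups did not overlap, and A2 had both the lowest untreated and the highest OHT level. Lamp2 rose by 0.59 ± 0.11 (limma adjusted p 0.00794), and its second probe gave 0.67.

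Lamp1, the other main lysosomal glycoprotein, changed less but evenly. It read 6.92, 7.14, 6.80 and 7.15 untreated and 7.28, 7.27, 7.07 and 7.40 after OHT, so that only the A2 OHT level fell inside the untreated range. The rise was 0.25 ± 0.05 (adjusted p 0.00711). Npc1, which moves cholesterol out of the lysosome, rose by 0.33 ± 0.08 and Mcoln1, the lysosomal calcium channel TRPML1, by 0.22 ± 0.05, with adjusted p of 0.0213 and 0.021.

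Among the cathepsins, Ctsa, Ctsb and Ctsd rose, while Ctsl and Ctsz were not called. Ctsb, a cysteine protease, read 3.27, 3.71, 3.67 and 3.66 untreated in A1, B1, A2 and B2, and 3.65, 4.19, 4.40 and 4.03 after OHT. In the labelled knockout both OHT arrays were above both untreated arrays, and in the wild type they overlapped because B1 was higher than A1 in both conditions. Ctsb rose by 0.49 ± 0.07 (limma adjusted p 0.00193).

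Ctsa, which encodes the protective protein that stabilises the enzymes of Glb1 and Neu1, read 4.52, 4.78, 4.31 and 4.87 untreated and 5.01, 5.11, 4.83 and 5.17 after OHT. It was higher in each pool and rose by 0.41 ± 0.06 (adjusted p 0.00183). Its second probe was much dimmer, from -4.03 (A2 untreated) to -2.76 (B1 OHT), and changed by 0.84. The size of the Ctsa change thus depends on the probe.

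Ctsd, the main aspartic protease, had its A1 untreated spot in a dark patch (1.50, against at least 4.66 elsewhere). Without that spot it rose by 0.44 ± 0.08 (adjusted p 0.011, 3 complete pools), and its second probe, outside any patch, gave 0.42 over 4 pools. With the spot, the group means gave 1.26 ± 0.74. Ctsl changed by 0.15 ± 0.08 and was at 0.56 in A2, against -0.01 to 0.04 in the other pools. Ctsz changed by -0.09 ± 0.06.

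The glycosidases did not move together: Glb1 and Hexa rose, Gusb and Manba fell, and Gla, Neu1 and Naglu were not called. Glb1, the lysosomal beta-galactosidase, read 1.87, 2.52, 1.37 and 2.63 untreated in A1, B1, A2 and B2 and 2.55, 3.05, 1.72 and 3.03 after OHT. The pools differed more from each other than the conditions did, yet every pool was higher after OHT, by 0.35 to 0.68. Glb1 rose by 0.49 ± 0.06 (limma adjusted p 0.00109).

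Hexa, a subunit of beta-hexosaminidase, had its A2 OHT spot in a dark patch. Its other pools rose from 2.47 to 3.04 (A1), 2.54 to 2.88 (B1) and 2.48 to 2.74 (B2). Without that spot it rose by 0.36 ± 0.08 (adjusted p 0.0181), while with it the group means gave -0.31 ± 0.66.

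Gusb, beta-glucuronidase, read 1.90, 2.39, 1.35 and 1.94 untreated and 1.42, 2.11, 1.21 and 1.84 after OHT. It was lower in each pool, with changes of -0.48 (A1), -0.28 (B1), -0.14 (A2) and -0.10 (B2). Over both genotypes it changed by -0.25 ± 0.07 (limma adjusted p 0.0254). Gla changed by -0.06 ± 0.05, Neu1 by 0.14 ± 0.09 and Naglu by 0.07 ± 0.12. Neu1 and Naglu moved by more than 0.5 in A2 alone, at 0.52 and 0.62.

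Manba, the lysosomal beta-mannosidase, was lower after OHT in the wild type pools only. It read 3.16 and 3.51 in untreated wild type cells (A1, B1) and 2.61 and 2.63 after OHT, where the groups did not overlap. In the labelled knockout it read 2.38 and 3.58 untreated (A2, B2) and 2.59 and 3.62 after OHT, slightly higher in both pools. The change was -0.72 ± 0.10 in the wild type (adjusted p 0.00322) and 0.12 ± 0.10 in the labelled knockout (adjusted p 0.448). The difference between them, 0.84 ± 0.14, missed the threshold (limma adjusted p 0.124).

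All 3 genes of lipid handling rose over both genotypes. Psap encodes prosaposin, the precursor of the saposins that present sphingolipids to hydrolases. It read 2.61, 2.62, 2.00 and 2.74 untreated and 3.45, 3.30, 3.01 and 3.02 after OHT in A1, B1, A2 and B2. All OHT arrays were above all untreated ones, and Psap rose by 0.70 ± 0.11, a factor of 1.62 (limma adjusted p 0.00517).

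Asah1, the acid ceramidase, read 1.96, 1.88, 1.78 and 1.93 without OHT and 2.27, 2.23, 2.68 and 2.33 with it. The untreated arrays lay close together and below every OHT array, and the A2 change, 0.90, was the largest. Asah1 rose by 0.49 ± 0.09 (adjusted p 0.00545), and its second probe gave 0.49 too.

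Npc2, the soluble partner of NPC1 in cholesterol export, rose from 3.39 to 4.08 in A1, 3.51 to 4.12 in B1 and 3.39 to 3.84 in B2. Its A2 OHT spot lay in a dark patch at -2.94, and 80.0% of the bright spots around it were dim as well. Without that spot the change was 0.55 ± 0.07 (adjusted p 0.00168), and with it the group means gave -1.15 ± 1.42.

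Of the proton pump proteins, Atp6ap1, an accessory subunit, rose by 0.29 ± 0.07 (limma adjusted p 0.0143) and Atp6v0d1, a subunit of the membrane sector, by 0.26 ± 0.06 (adjusted p 0.0156). Atp6ap1 read 1.48, 1.41, 1.56 and 1.34 untreated in A1, B1, A2 and B2 and 1.88, 1.69, 1.88 and 1.52 after OHT, and only the B2 OHT level lay within the untreated range. Atp6v0d1 was higher in each pool by 0.14 to 0.38. Atp6v1h, which links the catalytic sector to the membrane, changed by 0.04 ± 0.10 once its dim B1 spot was left out.

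The autophagosome genes were split. Map1lc3b, which encodes LC3B, the lipid-conjugated mark of autophagosomes, read 3.17, 4.26, 3.03 and 3.70 untreated and 3.69, 4.55, 3.33 and 4.06 after OHT. B pools were well above A pools in both conditions, and each pool was higher after OHT. Map1lc3b rose by 0.37 ± 0.06 (limma adjusted p 0.00334).

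Wipi1, a phosphoinositide-binding protein of early autophagosomes, rose by 0.62 ± 0.12 (adjusted p 0.0102) with its B2 OHT spot left out. That spot read -4.55, and with it the group means gave -0.49 ± 0.88. Its second probe was higher in the 3 pools left to it, by 0.45 on average. Uvrag, a Beclin 1 partner, was higher in all 4 pools but by only 0.09 to 0.21 (0.17 ± 0.06, adjusted p 0.0608). Gabarapl1, a relative of LC3, changed by -0.13 ± 0.10 and was lower in 3 of 4 pools.

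None of the 3 cargo receptors was called by limma in the paired fit over both genotypes, where 1 of them (Optn) had an unadjusted p under 0.05. Sqstm1, which encodes p62, read 1.58, 1.61, 1.09 and 1.68 untreated and 1.92, 1.64, 1.57 and 1.58 after OHT. It was higher by 0.34 and 0.48 in the A pools, while the B pools changed by 0.03 and -0.09. Optn, optineurin, read -2.15, -2.18, -2.96 and -2.27 untreated in A1, B1, A2 and B2 and -3.37, -2.62, -2.86 and -2.37 after OHT, with a change of -1.23 in A1, -0.44 in B1, 0.10 in A2 and -0.10 in B2. Nbr1 changed by -0.28 ± 0.12 without its A2 OHT spot.

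**Figure D3:**
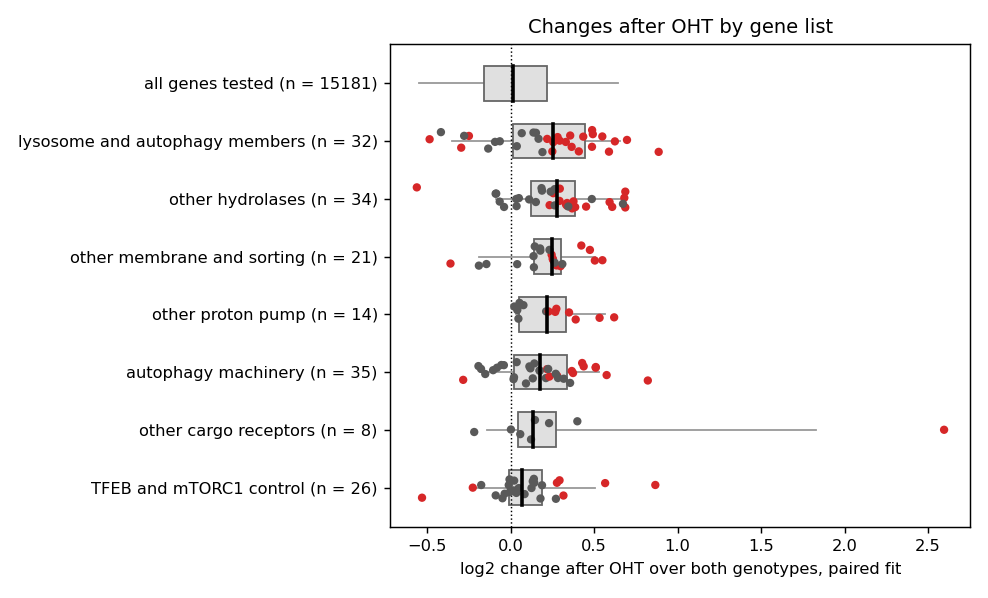
Log2 change after OHT over both genotypes in the paired fit (x axis) for all tested genes, the members and 6 lists of other pathway genes (y axis). Boxes span the middle 50% of genes with the median as a bar, whiskers run over the middle 90% of genes, and points are single genes, red where the adjusted p was under 0.05. The medians of the members (0.25) and of the other hydrolases (0.28) lie above the all-gene median of 0.01.

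The wider pathway was also mostly higher after OHT. Of 143 other genes of the lysosome, autophagy and their control, 138 were tested, and the paired fit over both genotypes called 49 higher and 5 lower, with a median change of 0.19. Over all genes it called 14.8% higher and 14.0% lower, and the shares of the 6 lists are to be read against these. Higher and lower calls numbered 16 and 1 among 34 hydrolases, 9 and 1 among 21 membrane and sorting genes, and 7 and 0 among 14 proton pump genes, where limma gave 8 with an unadjusted p under 0.05. They numbered 11 and 1 among 35 genes of the autophagy machinery, 1 and 0 among 8 cargo receptors, where 3 had an unadjusted p under 0.05, and 5 and 2 among 26 genes of TFEB and mTORC1 control, whose median change was 0.07. The rises among the cargo receptors and the control genes are near the share of all genes. In the limma fit on group means 0 of the 138 passed, and 13 had an unadjusted p under 0.05.

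The largest rise of the pathway was that of Calcoco2, which encodes the cargo receptor NDP52. It read 1.81, 1.33, 1.18 and 0.83 untreated in A1, B1, A2 and B2 and 5.00, 4.26, 3.15 and 3.13 after OHT. All OHT arrays were above all untreated ones, with limma adjusted p of 1.88e-05 for the rise of 3.06 in wild type cells and 2.19e-04 for that of 2.14 in labelled knockout cells.

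Mitf, another gene of the TFEB family, rose by 0.87 (adjusted p 0.00144), but by 0.20 in A2 against 0.88 to 1.19 in the other pools. Ulk1, the kinase that starts autophagy, rose by 0.82 and was higher in each pool by 0.45 to 1.15. Other large rises were those of Tpp1 (0.69), Gm2a (0.69), Atp6ap2 (0.62), Dpp7 (0.61), Ctsk (0.59) and Gabarap (0.58), with adjusted p from 2.88e-04 to 0.0466. Ctsk was uneven, with a change of 1.50 in A2 against 0.10 to 0.39 in the other pools. Tpp1 encodes a lysosomal peptidase and Gm2a an activator protein of ganglioside breakdown.

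The 5 pathway genes that fell were Ctsc (-0.56, without its dark A2 OHT spot), Rragb (-0.53), M6pr (-0.36), Wipi2 (-0.28) and Lamtor3 (-0.23), with limma adjusted p from 0.00214 to 0.0404. M6pr encodes a mannose 6-phosphate receptor that sorts new hydrolases to the lysosome, and RRAGB and LAMTOR3 belong to the complex that recruits mTORC1 to it. M6pr was lower in each pool by 0.31 to 0.43.

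The calls were also counted by whether a promoter held the CLEAR core. Of the 8 members with TCACGTG, 6 rose (Lamp1, Mcoln1, Ctsd, Glb1, Ctsa and Atp6v0d1) and Gla and Naglu were not called. Of the 20 with a promoter and no such match, 9 rose and 3 fell, and Tfeb, Psap and Lamp2 were among the 9. The median change was 0.25 with the motif and 0.18 without it. Over all tested genes 16.8% of the 779 with the motif were called higher, against 14.4% of the 11287 without it. These counts are a description, and binding was not measured.

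The comparison of genotypes asks whether the OHT response of these genes needs ERF. The difference of the OHT effects was called for 0 of the 32 members, against 0.0% of all genes, in both limma fits, with 2 members under an unadjusted p of 0.05 in the paired fit (Manba and Optn) and 0 on group means. Besides Manba, Optn differed by 0.83 ± 0.35 (adjusted p 0.572). The differences of the other 30 members ran from -0.41 ± 0.21 (Tfeb) to 0.54 ± 0.23 (Naglu), knockout minus wild type. With standard errors up to 0.35 on the log2 scale, an absence of calls does not show that the genotypes respond alike.

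**Figure D4:**
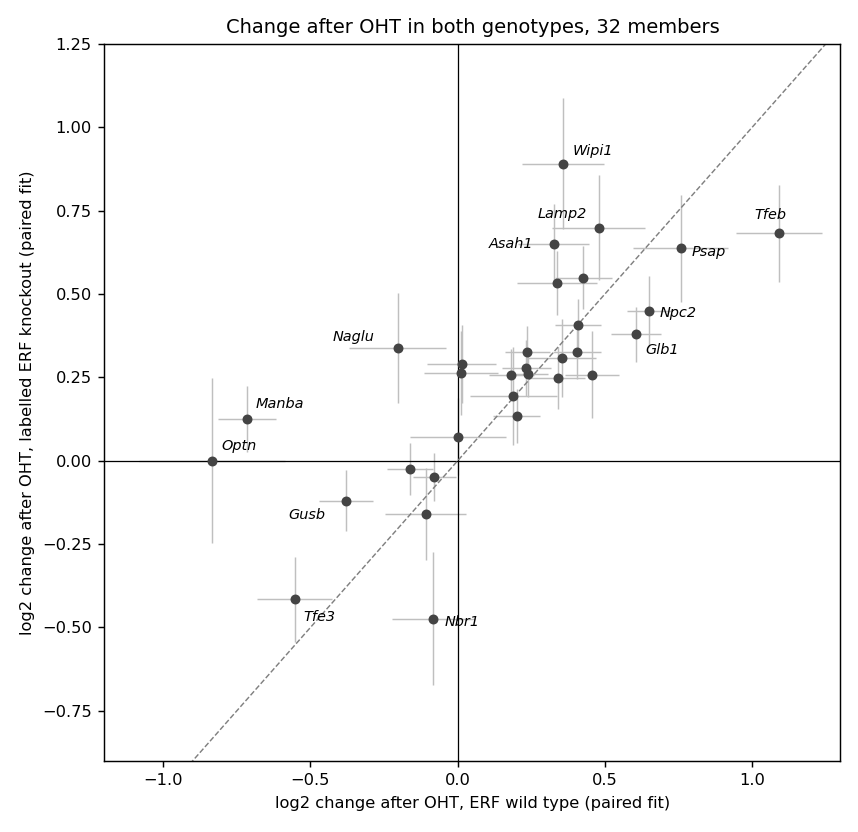
Log2 change after OHT in the wild type (x axis) against that in the labelled knockout (y axis) for the 32 members in the paired fit, with standard errors as bars and a dashed line of equal change. Most members lie near the line in the upper right, and Manba and Optn lie far to the left of it.

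Without OHT, no member differed between the genotypes at an adjusted p of 0.05, nor did any after OHT, by limma on group means or with the replicate number as a block (0.0 and 0.0% of all genes). The blocked fit gave 2 and 1 members with an unadjusted p under 0.05 and the group means gave 0 and 0. The median difference over members, labelled knockout minus wild type, was -0.11 without and -0.07 with OHT on group means. In the blocked fit Map1lc3b differed by -0.35 ± 0.13 (SE) untreated and -0.43 ± 0.13 after OHT (limma adjusted p 0.856 and 0.508), and Gusb by -0.50 ± 0.12 untreated (adjusted p 0.856). In both genes the arrays of the genotypes overlapped.

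The levels of many members differed between cell pools by as much as they did between OHT and untreated arrays. In untreated cells, pool A2 had the lowest level of the 4 pools for 22 of 30 members (37.0% of all genes) and B2 the highest for 14 of 30 (25.0% of genes). Relative to each member's mean over the 4 untreated arrays, the median member stood at -0.29 in A2, 0.01 in A1, 0.13 in B1 and 0.15 in B2, while the medians over all genes lay between -0.05 and 0.04. The members lowest in A2 included Glb1, Neu1, Hexa, Psap, Lamp1 and Tfeb. Neu1, the sialidase of the complex with cathepsin A, read 1.82 there against 2.79 to 3.05 in the other untreated pools.

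**Figure D5:**
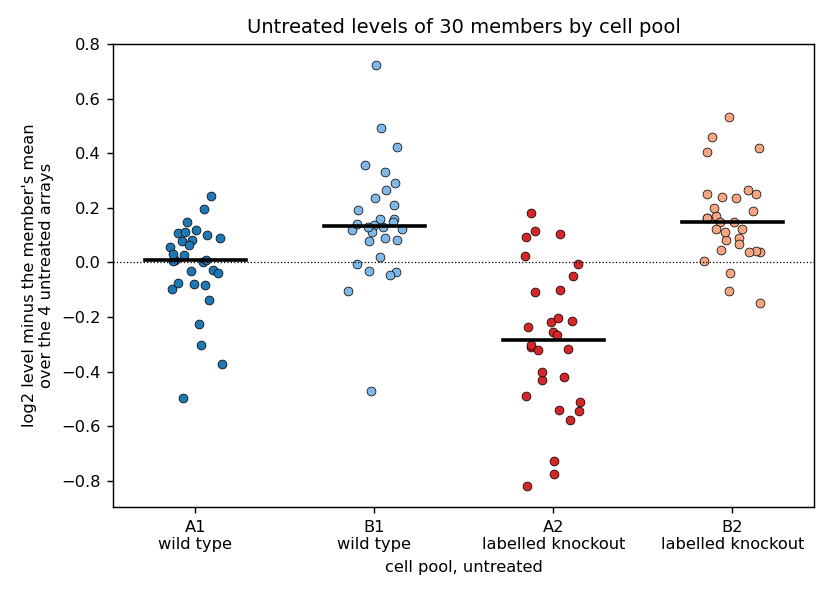
Untreated level of 30 members relative to each member's mean over the 4 untreated arrays (log2, y axis) by cell pool (x axis), 1 point per member, with bars for the medians. Most A2 points lie below 0, with a median of -0.29, and the B1 and B2 medians lie at 0.13 and 0.15.

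Of 26 members, 12 were higher in the B than in the A pool in both genotypes and both conditions, against 30.1% of genes, among them Ctsa, Glb1, Mcoln1 and Gabarapl1. Another 2, Atp6ap1 and Uvrag, were lower in B throughout, against 18.0%. Both B1 arrays were on slide 2 and all other arrays on slide 1. In the wild type, pool and slide therefore cannot be told apart. In the wild type 16 of 30 members had both OHT arrays above both untreated ones (17.4% of genes) and 4 had them below (Manba, Naglu, Tfe3 and Optn, 21.6%). In the labelled knockout, whose pools lie further apart, it was 7 of 28 above (17.1%) and 1 below (Tfe3, 9.5%). Across members, the changes in different pools correlated with Pearson's r from 0.53 to 0.85 over 28 to 30 members, and from 0.24 to 0.65 over all genes, as a description only.

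Without pool A2, the paired fit called 16 members over both genotypes (24.2% of all genes), 15 of them among the 21 called with all pools, the addition being Gabarapl1. It called 16 in the wild type (22.6% of genes). In the labelled knockout, left with B2 alone and its spread borrowed from the wild type, it called 3 (4.46% of genes), Npc2 higher and Tfe3 and Gabarapl1 lower. Without B2 the counts were 20 over both genotypes (27.8%), 15 in wild type cells (22.2%) and 8 in labelled knockout cells (8.16%). Without A1 they were 12 (17.1%), 1 (5.28%) and 6 (8.01%), and without B1 11 (14.4%), 2 (4.62%) and 6 (8.35%). The wild type counts of 1 (Manba) and 2 (Glb1 and Tfeb) are near the share of all genes, and the labelled knockout count also fell when a wild type pool was left out.

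Markers of other cell types also moved with OHT, and their counts are to be read against the 14.8% of all genes called higher and 14.0% called lower. Of 9 measured trophoblast markers 6 rose and 2 fell in the paired fit over both genotypes, and the sum of their linear signals ran from 23.3 to 66.5 untreated and 48.0 to 106 after OHT in the wild type, and from 27.9 to 291 and 38.1 to 344 in the labelled knockout. The highest sums were those of pool A2, where Krt8 read 5.42 untreated against 0.89 to 3.31 in the other pools. Primitive endoderm markers gave 4 rises and 2 falls among 12, close to the share of all genes for the falls. Fibroblast markers gave 4 rises among 10 over both genotypes. They gave 0 in wild type cells, where 8.14% of all genes were called higher, and 3 in labelled knockout cells, where 6.3% were. Their median changes were -0.05 in A1, 0.15 in B1, 0.89 in A2 and 0.32 in B2. Ctsl, Naglu, Neu1, Lamp2 and Asah1 also had their largest change in A2, as did Psap, Ctsb, Ctsd and further members. Tfeb, Glb1 and Map1lc3b, among others, had theirs in A1. The share of all genes with their largest change in A2 was not counted. Of 9 macrophage markers 2 rose, Laptm5 (itself a lysosomal membrane protein) and Itgam, a share near that of all genes, and the sums of the 9 were 6.20 to 8.53 untreated and 7.12 to 12.0 after OHT. Elf5 and Adgre1 were not well above background on both arrays of any group, and Lyz2 was so on 4 arrays. Of 10 pluripotency genes 4 rose, Nanog by 1.27, Klf4 by 0.90, Esrrb by 0.75 and Sox2 by 0.23. Utf1 (-1.15) and Tdgf1 (-0.73) fell and were lower in each of 4 pools, and Pou5f1, Zfp42, Dppa5a and Sall4 were not called. The part of any of these cells in the changes of the lysosomal genes was not tested, and in bulk samples fewer cells of a type and less RNA per cell cannot be told apart.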

How the data were processed

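The scanner output of each array was read as deposited. Its spot intensity values are processed signals, background-subtracted and detrended within the array by Agilent Feature Extraction but not scaled between arrays, per the file headers. Later steps of the authors are not given in the sources used here. Deposited 0 or 1 marks for bright, saturated and non-uniform spots served as filters, and the series value table was left out.

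Of 62976 spots, 59305 were no controls. Outlier spots were left out, spots of a probe averaged, and the log2 signal taken minus each array's 75th percentile. Probes were named through RefSeq (28026 of 55681). A gene was tested, on its brightest probe, if that probe was bright in both arrays of a group. Groups came from the titles and pools from the source names.

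Differences were tested two-sided by limma 3.58.1 in R 4.3.3 (lmFit, eBayes) on the 4 group means, adjusted after Benjamini and Hochberg over all genes, at 0.05. The paired fit added the pool as a block (the replicate number for genotype comparisons) and trended, robust variance. It left out spots around which at least 25% of bright neighbours (7 by 7 spots) lay over 1 log2 unit below their median over arrays, a rule added after a planned one (15 by 15 spots) had missed patches. The pairing comes from the source names: deviations from group means correlated between the same pools' arrays with r 0.658 (wild type) and 0.443 (labelled knockout), or 0.751 and 0.722 with patches out. Slide 2 held both arrays of B1 and slide 1 the other 6. The labels call the replicates biological, so the spread behind the p-values is that between pools, and the number of arrays limits the precision. By eBayes, each gene's spread is drawn towards that of all genes, in the paired fit along a trend with signal level. An SE or p-value given here is thus not based on the gene's own spread between pools alone. Normalisation, filters, probe choice, variance, slide, patches and left-out arrays or pools were varied.

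All members were named, with other pathway genes called by the paired fit for OHT, at most 10 a direction by size (a gene among these is not reported here), and 5 pluripotency genes. Krt8, Laptm5, Itgam, 5 more pluripotency genes and the markers not measured were named after their values were seen. Members and lists were chosen with earlier results of these data known. The fits were tested on simulated data. Tables and figures used Python 3.11.15, pandas 2.3.3 and matplotlib 3.10.9.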

Additional observations from a re-analysis of the deposited data

How the results depend on the processing

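With 2 arrays a group, precision is set by their number, and the count of calls depended on the fit more than on anything else. On group means the alternatives gave 0 members called in each comparison, apart from fits without an array. The replicate block alone called 1 member over both genotypes, and 523 of all genes. With trended and robust variance it called 17 members over both genotypes and 5 in the wild type, and of all genes 3200 over both, 514 in the labelled knockout and 1563 in the wild type. With the planned patch rule as well, it called 19, 9 and 3 members and 3573, 1961 and 845 genes, and with the added rule 21, 13 and 12 members and 4372, 2651 and 1618 genes. The block with the added rule and plain variance called 4 members and 1762 genes over both, and 275 genes in the wild type. No genotype comparison changed its call of 0 members under the block. Leaving out pools A1, A2, B1 and B2 in turn, the paired fit with the added rule called 12, 16, 11 and 20 members over both genotypes, 1, 16, 2 and 15 in the wild type and 6, 3, 6 and 8 in the labelled knockout. The cause of these shifts was not tested.

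On group means over both genotypes, where 9 genes were called, other settings called 16 (normexp and quantile), 5 (quantile), 22 (probes bright on all 8 arrays), 0 (no filter), 4 (mean of probes), 15 and 23 (planned and added patch rule), 0 (slide as a block, 1 fewer degree of freedom) and 0 (slide 1 alone, fewer arrays). In the wild type, where 0 were called, normexp gave 5, probes bright on all 8 arrays 6 and trended variance 3. The median difference of OHT effects over members was -0.0599 on slide 1 alone, and that of the labelled knockout against wild type after OHT was -0.0171 with the slide as a block and -0.0272 on slide 1 alone.

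Without single arrays, all genes called ranged from 0 to 29 in the wild type, 0 to 383 in the labelled knockout, 0 to 412 over both, 0 to 321 for the difference, and 0 to 21 and 0 to 386 between genotypes without and with OHT. Members called ranged from 0 to 3 in the labelled knockout, over both, for the difference and between genotypes after OHT: the 3 (Npc2, Hexa and Nbr1) came without the B2 OHT array, when their dark-patch spots on A2 stood alone. The median over members ranged from -0.0453 to 0.44 in the labelled knockout, 0.11 to 0.33 over both, -0.22 to 0.26 for the difference, and -0.32 to 0.0848 and -0.18 to 0.0317 between genotypes without and with OHT.

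The change over both genotypes turned its sign with the patches left out for Hexa (0.46 under both rules, 0.36 with the block, 0.30 to 0.41 without pools), Npc2 (0.54, 0.55 and 0.53 to 0.57), Wipi1 under the added rule (0.55, 0.62 and 0.57 to 0.68) and Atp6v1h (-0.0367), each with a spot in a patch. It also turned for Gla (0.0091 with normexp, 0.0011 with quantile), Naglu (-0.0738) and Atp6v1h (-0.0395) without A2, and Gabarapl1 without B2 (0.0245). Without single arrays it ranged from -0.21 to 0.02 for Ctsz, -0.23 to 0.10 for Gla, -1.08 to 0.46 for Hexa, -0.17 to 0.44 for Neu1, -0.59 to 0.0037 for Manba, -0.10 to 0.23 for Naglu, -2.85 to 0.54 for Npc2, -0.0367 to 1.64 for Atp6v1h, -0.33 to 0.0632 for Gabarapl1 and -1.53 to 0.55 for Wipi1. In all, 42 of 888 values of single members under an alternative changed sign.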
